A study of Mus musculus with 2 samples.

Results

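Retnlg and Retnla are 2 of the 32285 genes counted in the single-cell library of osteal macrophages (Omacs), and they were matched by gene symbol. Both were selected on their measured levels across the cell clusters and on their OVX to sham ratios in these same cells, so those values are given as a description, with no test. The library was made from BALB/c female mice that were ovariectomized (OVX) or sham-operated at 10 weeks of age, in pools of 20 animals per condition, 4 weeks after surgery. Cells were released by enzyme digestion from femurs and vertebrae stripped of periosteum, with the marrow cavity of the femurs washed out first, and were sorted with antibodies against CD11b, F4/80 and CD68. The OVX cells carried hashtag 1 and the sham cells hashtag 2, and both were run in 1 droplet reaction, with 1037 OVX and 1084 sham cells loaded per the labels. With 1 pool per condition there is no replicate, so no p-value is given and every interval covers counting error only.

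The deposited counts hold 2349 barcodes with 17681092 unique molecular identifiers (UMIs, each 1 captured RNA molecule), a median of 4387 per barcode. The hashtags assigned 1059 cells to OVX and 981 to sham, with median depths of 4812 and 3704 UMIs. Another 78 barcodes carried both hashtags and 231 carried neither. The label calls these cells macrophages, and most of them had few UMIs of the 12 macrophage genes listed for this report. The paper reported other macrophage markers in its Omacs, among them Cd14, Itgam, Lgals3 and Tlr2, which are not on that list. In the 8 neutrophil-like clusters, which held 2019 cells, a list of 10 neutrophil genes took 27.7% of UMIs and a list of 12 macrophage genes took 0.00912%. In UMIs per 1000000 UMIs (CPM), Cd68 was the highest of the 12 there, at 60.8, followed by Msr1 at 13.6, Csf1r at 7.74 and Adgre1 (F4/80) at 2.49, against 150510 for the neutrophil gene S100a9. The other 8 were each at 2.31 CPM or less. The other 3 clusters held 7.08% of OVX and 11.8% of sham cells.

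The resistin family encodes small secreted proteins rich in cysteine. Retnla (FIZZ1, RELM alpha) is best known as a gene of alternatively activated macrophages, where interleukins 4 and 13 act on it through STAT6 and C/EBP factors. Retnlg (RELM gamma) is known as a gene of bone marrow and of neutrophils, and it is not a usual marker of macrophage activation.

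On the GRCm38 build, the genes Retnlb, Retnla and Retnlg lie in a row on the plus strand of chromosome 16, and Retn lies apart on chromosome 8. Retnla (ENSMUSG00000061100) spans chr16:48842551-48844461 and Retnlg (ENSMUSG00000022651) spans chr16:48872621-48874496, with 28159 bases and no annotated gene between them. Each has a transcript of 4 exons, 599 bases long for Retnla and 593 for Retnlg, and the pair is 84.5% identical over 587 aligned bases. Their longest exact shared run is 49 bases, and the 25-base words they share lie between 372 and 567 bases from the 3′ end of Retnla. The kit captures the 3′ end, and the last 372 bases of the transcripts share no such word.

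The sequences upstream of the genes are shown because Retnla is known through its STAT6 and C/EBP sites. They come from RefSeq on GRCm38.p6, are written 5′ to 3′, and end before the first annotated base of each gene. The reference is not a BALB/c genome. Capitals mark the STAT6 letters, TTC and GAA with 4 bases between them, and the C/EBP letters TTGCNNAA, both searched on both strands. The Retnla stretch is chr16:48842359-48842535 and the Retnlg stretch is chr16:48872432-48872607, both on the plus strand.
Retnla: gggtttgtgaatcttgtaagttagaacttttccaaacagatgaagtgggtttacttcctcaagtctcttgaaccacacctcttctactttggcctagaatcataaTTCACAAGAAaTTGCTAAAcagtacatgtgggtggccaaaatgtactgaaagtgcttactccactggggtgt
Retnlg: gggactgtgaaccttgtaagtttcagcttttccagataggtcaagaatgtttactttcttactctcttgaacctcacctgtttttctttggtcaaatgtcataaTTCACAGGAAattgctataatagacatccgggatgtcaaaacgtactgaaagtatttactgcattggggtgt
The 2 stretches were 78.9% identical over 175 aligned bases. Both held the STAT6 letters at the same place in the alignment. The Retnla stretch held the C/EBP letters right after them, and the Retnlg stretch did not, although the wider window of 250 bases before the Retnlg start held a C/EBP match farther upstream. Of 32851 windows of 250 bases before a start site, 5.85% held the STAT6 letters, 9.56% the C/EBP letters and 0.609% both. A match of letters is a description and not a binding site.

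Retnla was a gene of very few cells. Its 534 UMIs lay in 19 of the 2349 cells, a share of 0.809% (exact interval 0.488% to 1.26%), and 96.3% of them lay in 4 cells. Those 4 cells held 349, 100, 39 and 26 Retnla UMIs. Of the remaining 15 cells, 1 held 4 UMIs, 1 held 3 and 13 held a single UMI. Of the 4710 genes with 400 UMIs or more, 0.446% had at least 50% of their UMIs in 4 cells, the median gene had 4.65% there, and no gene exceeded Retnla in this measure. Retnlg, with 135525 UMIs in 2028 cells, had 3.08% of its UMIs in its 4 top cells.

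Outside the 4 cells Retnla was close to the limit of detection. The other 2015 neutrophil-like cells held 13 Retnla UMIs, 10 cells with a single UMI and 1 with 3, or 1.16 CPM (Poisson interval 0.618 to 1.99). The stromal-like cells, taken here as a guide to background RNA, held 2 UMIs in 210 cells, or 0.365 CPM (0.0442 to 1.32). These intervals overlap. Whether stromal-like cells make Retnla themselves was not tested. After each cell was thinned to 1000 UMIs, a Retnla UMI remained in 3 of 1879 of these neutrophil-like cells (0.16%) and in 0 of 198 stromal-like cells, where a count of 0, taken as up to 3 cells, allows up to 1.52%. Background RNA and a low level in these cells cannot be told apart with so few UMIs. The cell with 4 Retnla UMIs was a sham cell of the Pf4-Ppbp cluster, with 1.70% of its 2709 UMIs from the neutrophil list and 2 Arg1 UMIs.

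All 4 cells had the transcripts of neutrophils and few UMIs from the list of macrophage genes. In the top cell, which had 9185 UMIs, 35.2% of UMIs came from the neutrophil list, and Retnla took 3.80% of UMIs against 1.09% for Retnlg. It was an OVX cell of the stefin cluster, in which the cysteine protease inhibitors of the stefin A family lead, and it held 2508 UMIs of hashtag 1 against 372 of hashtag 2. The second cell was also an OVX cell of the stefin cluster, with 100 Retnla and 305 Retnlg UMIs among 8312. The third was a sham cell with 39 Retnla and 104 Retnlg UMIs among 15819. It was placed in the cell-cycle cluster but had 0 UMIs from the cell-cycle list and 776 from the secondary-granule list (Camp, Ltf, Ngp and other granule proteins of immature neutrophils). The fourth was an OVX cell of the Ifitm1-Hacd4 cluster, with 26 Retnla and 67 Retnlg UMIs among 5271.

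The macrophage list gave 1, 2, 1 and 0 UMIs in these 4 cells. The monocyte, dendritic, eosinophil and basophil or mast cell lists gave 0. Arg1 and Mrc1, which mark alternative activation, were at 0 in each. Over the neutrophil-like clusters these genes were at 22.8 and 0.178 CPM, so a 0 in a single cell says little. The share of UMIs from neutrophil genes lay between 31.3% and 38.6%. Scrublet's doublet score was 0.052, 0.0811, 0.110 and 0.0623, against cluster medians between 0.0414 and 0.0811, so only the third cell lay above all medians. Whether a second source of RNA was present in these droplets was not tested beyond these values.

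**Figure D1:**
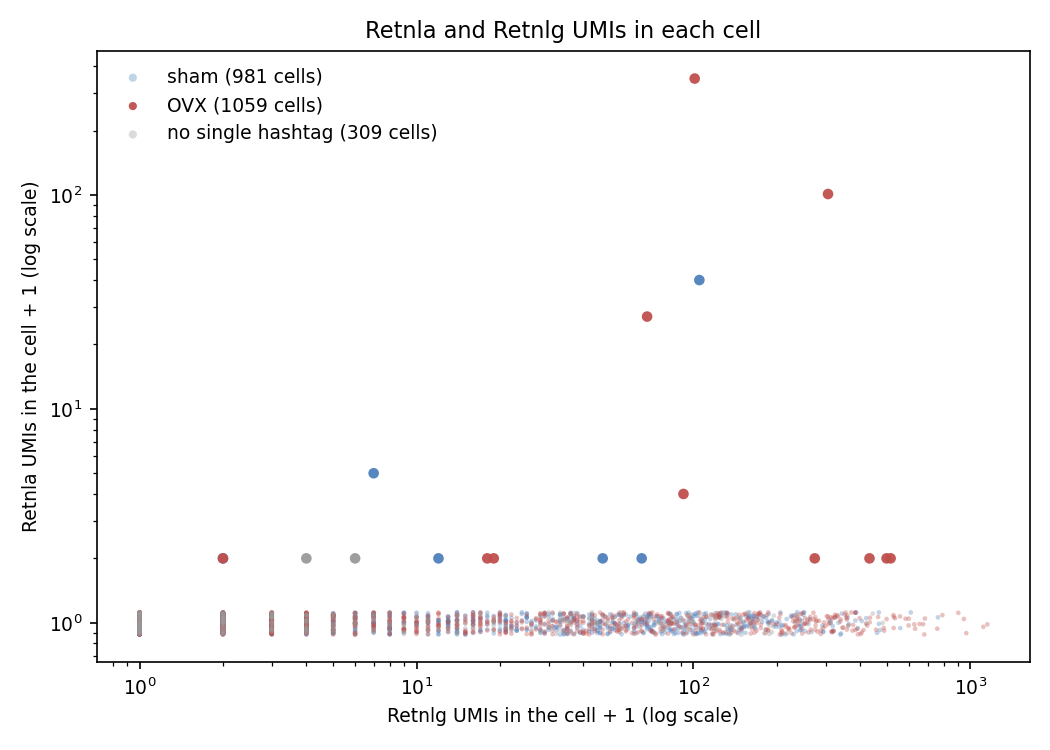
Retnla UMIs (y axis) against Retnlg UMIs (x axis) in each of the 2349 cells, both with 1 added and on log scales, coloured by hashtag, with large points for the 19 cells with Retnla and a small vertical scatter for cells at 0. The 4 cells with 26 to 349 Retnla UMIs stand apart from the rest, and cells with the most Retnlg lie at 0 or 1 Retnla UMI.

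In summed UMIs, Retnla did not follow Retnlg from cluster to cluster. It was at 149.6 CPM in the stefin cluster (455 UMIs in 6 cells), 24.3 CPM in the cell-cycle cluster (40 UMIs in 2 cells), 16.3 CPM in the Ifitm1-Hacd4 cluster (31 UMIs in 6 cells) and 5.45 CPM in the Pf4-Ppbp cluster (5 UMIs in 2 cells). The Poisson intervals of the stefin cluster (136 to 164 CPM) and of its neighbour in this order (17.4 to 33.1 CPM) did not overlap, while those of the cell-cycle and Ifitm1-Hacd4 clusters (11.1 to 23.2 CPM) did. In 4 neutrophil-like clusters of 994 cells, the P2rx7-Trpm2, secondary-granule, chemokine and Wfdc17-Oasl2 clusters, Retnla was at 0 UMIs beside 44367 Retnlg UMIs, and 3 UMIs, the most a count of 0 is taken to allow, would be 0.00676 per 100 of Retnlg. In the stefin cluster the figure was 1.04 per 100. So summed Retnla counts were not a fixed share of Retnlg counts. The Poisson intervals treat UMIs as independent, although most Retnla UMIs lay in 4 cells. By share of cells with Retnla, the stefin cluster was at 1.81% (exact interval 0.666% to 3.89%). The chemokine cluster was at 0% (0% to 0.759%) and the secondary-granule cluster at 0% (0% to 2.01%), and both intervals overlap that of the stefin cluster. Whether clusters differ in this share cannot be told from so few cells.

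By rank, Retnla was the leading gene of the stefin cluster, 27.7-fold above all other cells, ahead of Stfa2 at 12.4-fold. That place came from 2 cells, which held 449 of the cluster's 455 UMIs, and the other 4 cells held 6. The log2 ratio of Retnla to Retnlg was 3.70 higher in the stefin cluster than in the other neutrophil-like clusters (counting interval 3.34 to 4.08). Without the top cell it was 1.60, and without both cells it was -2.53, so its direction rests on those 2 cells.

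The Retnla difference between conditions rested on the same cells. Summed over all cells, Retnla was at 62.2 CPM in OVX (485 UMIs) and 7.27 CPM in sham (47 UMIs), a ratio of 8.55 (exact interval 6.33 to 11.8). Among the 7170 genes that reached 10 CPM in OVX or sham, 1.74% were at least 2-fold higher in OVX. A single cell held 72.0% of the OVX UMIs. Without that cell the ratio was 2.40 (1.71 to 3.42), and without the 4 cells with 10 or more UMIs it was 1.04 (0.368 to 3.02), from 10 OVX and 8 sham UMIs. With clusters weighted alike in both conditions, by their share of the UMIs of both together, the log2 ratio was 2.61. Without the top cell it was 0.94. Counted as cells, 11 of 1059 OVX cells (1.04%, exact interval 0.52% to 1.85%) and 6 of 981 sham cells (0.612%, 0.225% to 1.33%) held Retnla. Of the 4 cells with 10 or more UMIs, 3 were OVX (0.283%, 0.0585% to 0.826%) and 1 was sham (0.102%, 0.00258% to 0.567%). These shares describe the cells of 1 pool each.

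**Figure D2:**
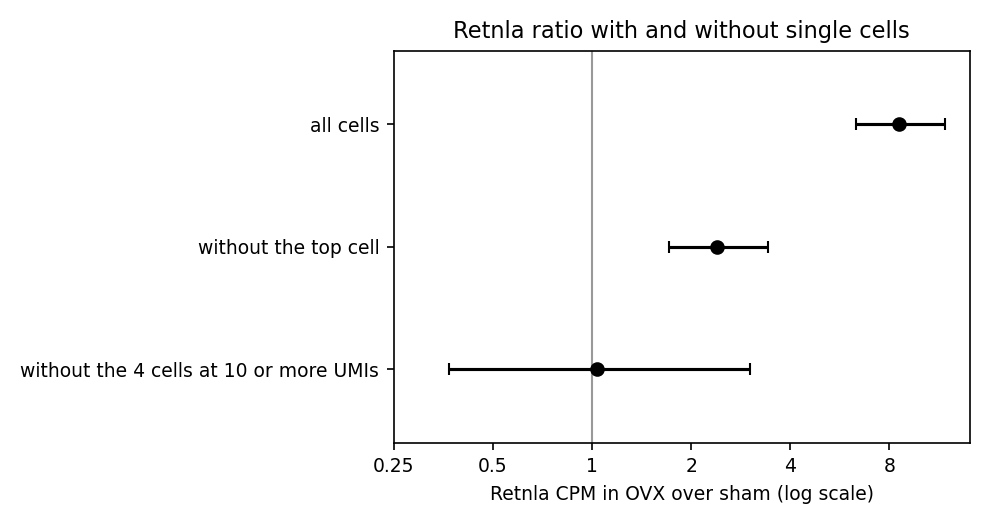
Ratio of Retnla CPM in OVX to sham (x axis, log scale) over all cells, without the cell with the most Retnla, and without the 4 cells with 10 or more UMIs, with exact conditional intervals as bars. The ratio goes from 8.55 to 2.40 to 1.04, and the last interval spans 1.

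The other genes of the alternative activation program went both ways. Of the 18 genes on that list, 13 reached 10 CPM in either condition, of which 1 was at least 2-fold higher in OVX and 3 at least 2-fold lower, against 1.74% and 4.07% of all genes tested. The one higher in OVX was Il13ra1, a receptor chain for interleukin 13, at 101 CPM in OVX and 37.3 in sham over all cells, and at 109 and 31.9 in the neutrophil-like clusters. Il4ra, the receptor chain shared by interleukins 4 and 13, was 1.89-fold higher in OVX. Those lower were Arg1 (arginase 1) at 122 against 470 CPM and the chemokines Ccl17 and Ccl22. All 3 were at higher levels in the Pf4-Ppbp cluster, of 21 OVX and 50 sham cells, than in the neutrophil-like clusters. Within the neutrophil-like clusters the direction of Arg1 and Ccl22 was the opposite. Arg1 was at 37.4 CPM in OVX and 3.81 in sham, and Ccl22 at 3.21 and 0.476. These clusters held 256 Arg1 and 22 Ccl22 UMIs in all, so Ccl22 was near the limit of detection there. The stefin cluster among them, of 291 OVX and 28 sham cells, was at 55.9 CPM of Arg1. Whether cluster shares or levels within clusters gave these differences was not tested. The list's median log2 ratio was -0.31, beside -0.23 over all genes tested. In the neutrophil-like clusters, Stat6 was at 84.7 CPM, the receptor Il4ra at 83.3 and Cebpb at 1386. There, 9 of the 18 genes were under 10 CPM, with Chil4 and Clec10a at 0 UMIs and Mrc1 at 2. Over all cells, 7170 of the 32285 genes reached 10 CPM in OVX or sham.

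In the 4 cells with most Retnla, 7 of the 18 genes had any UMI. Each of these cells held between 1276 and 2827 genes, of 18802 with a UMI in the library. The share of all genes found over the 4 cells was not computed, so this count is not a result about the list. Chil3 (Ym1), a chitinase-like protein made by activated macrophages and by immature neutrophils, was at 9, 0, 2 and 3 UMIs, where the mean of the other cells of each cluster would give 0.563, 0.534, 4.76 and 0.262. Cebpb was at 50 UMIs over the 4 cells against 39.9 at the cluster means, and Retnlg at 576 against 400. Tgm2, also on the list, was at 11 UMIs against 4.40, all 11 in the third cell. Among genes with at least 10 UMIs over these cells, the one farthest above its cluster means after Retnla was Car4 (carbonic anhydrase 4), at 20 UMIs against 1.99 and above the mean in 2 of the 4 cells. These cells were chosen after their values were seen.

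Retnlg, in contrast, was abundant and widely detected in the neutrophil-like clusters. At 1000 UMIs per cell it was found in 78.1% of 1883 neutrophil-like cells, and without thinning in 88.5% of 2019. It ranked 8 among all genes in the neutrophil-like clusters, where it took 1.19% of UMIs. It was highest in the P2rx7-Trpm2 cluster, at 27247 CPM, a cluster of 117 cells led by a purine receptor and a cation channel. Next were the Ifitm1-Hacd4 cluster at 18759 CPM, the stefin cluster at 14444 and the secondary-granule cluster at 12211. The chemokine cluster, led by Ccl4 and Acod1, was at 9416 CPM, the Gm42418-Borcs6 cluster at 8814, the Wfdc17-Oasl2 cluster at 3743 and the cell-cycle cluster at 3115.

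The clusters that were not neutrophil-like had far less Retnlg. The Gm10800-Gm10801 cluster, of 42 shallow barcodes rich in mitochondrial RNA, was at 751 CPM, the Pf4-Ppbp cluster at 707 and the stromal-like cluster at 128. In this order of 11 clusters, the only neighbours with overlapping Poisson intervals were the Gm10800-Gm10801 (544 to 1012 CPM) and Pf4-Ppbp (653 to 763 CPM) clusters. The intervals treat UMIs as independent and leave out the spread between cells, so they do not settle the order of neighbours. In summed UMIs the cell-cycle cluster lay at the low end of the neutrophil-like clusters, below the secondary-granule cluster. The range depended on the clustering. Over 6 other clusterings the highest neutrophil-like cluster lay between 14333 and 22807 CPM and the lowest between 1782 and 8130.

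Detection at equal depth also set the clusters apart. With each cell thinned to 1000 UMIs, Retnlg was found in 97.7% of the 175 secondary-granule cells, 96.5% of the 113 P2rx7-Trpm2 cells and 92.3% of the 336 Ifitm1-Hacd4 cells. It was found in 68.9% of the 135 cell-cycle cells, 63.3% of the 436 chemokine cells and 46.2% of the 199 Wfdc17-Oasl2 cells. The stromal-like cells, which should lack the gene, gave 10.1% at 1000 UMIs (20 of 198, exact interval 6.28% to 15.2%), against 81.4% before thinning at a median depth of 19996.5. Their Retnlg level was 1.07% of that of the neutrophil-like clusters. For the 10 genes of the neutrophil list this percentage lay between 0.655% (S100a8) and 2.13% (Mmp9), except for Camp at 28.1%. By CPM and by detection at 1000 UMIs, every neutrophil-like cluster lay above the stromal-like cells in Retnlg. Without thinning, detection was 75.2% in the chemokine cluster and 73.9% in the Wfdc17-Oasl2 cluster, below that of the deeper stromal-like cells. Whether the typical cell of these clusters lay above background RNA was not tested.

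**Figure D3:**
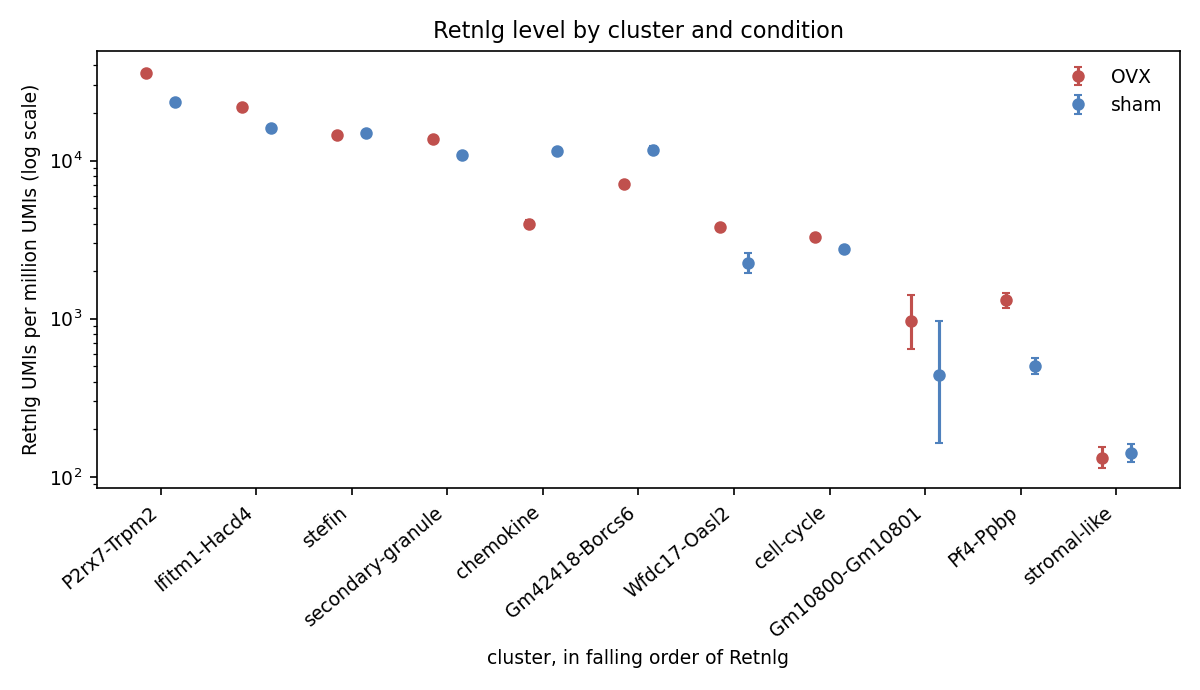
Retnlg level in CPM (y axis, log scale) in each of the 11 clusters (x axis) for OVX and sham cells, with exact Poisson intervals as bars. Levels go from 35846 and 23553 CPM in the P2rx7-Trpm2 cluster to 132 and 141 CPM in the stromal-like cluster, and OVX lies above sham in some clusters and below it in others.

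Cells of 1 cluster differed widely in Retnlg. Per 10000 UMIs of the cell, the median was 192 Retnlg UMIs in the P2rx7-Trpm2 cluster (quartiles 102 and 326), 110 in the Ifitm1-Hacd4 cluster (38.1 and 224) and 85.8 in the stefin cluster (20.8 and 179). The chemokine cluster had a median of 10.7 with quartiles at 2.05 and 85.4, and the 25 cells with the most Retnlg held 39.8% of its Retnlg UMIs. In the Wfdc17-Oasl2 cluster the median was 4.93, and 11 of 211 cells held 64.5%. The highest share in any cell was 14.4% of its UMIs, in the chemokine cluster. At 2000 UMIs per cell, the variance of Retnlg over its mean was between 23.2 and 61.7 in the 8 neutrophil-like clusters, where the median of genes with a mean of at least 2 UMIs was between 1.87 and 3.04. Retnlg ranked from 1 to 5 among 61 to 91 such genes. S100a9 and Gm42418, a gene that takes ribosomal RNA reads, were also among the highest by this measure. The measure grows with the mean where the relative spread is alike, and Retnlg had means between 5.12 and 54.8 UMIs. It was not compared with genes of equal mean, so its rank may reflect abundance.

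**Figure D4:**
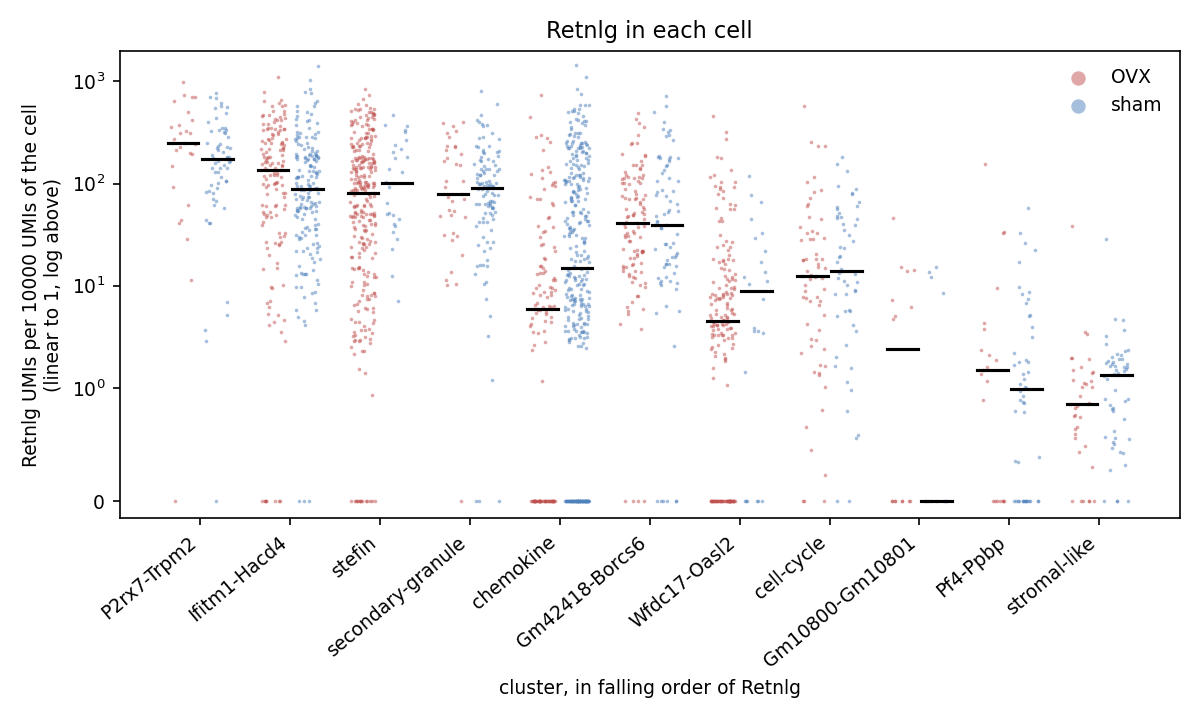
Retnlg UMIs per 10000 UMIs (y axis, linear to 1 and logarithmic above) in every OVX and sham cell of each cluster, with black bars for medians. The points of a single neutrophil-like cluster spread widely, and the chemokine cluster holds cells at 0 beside the highest cell of all at 1437.

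Within the neutrophil-like clusters, the secondary-granule list gave an order of cells that does not use the borders between clusters. The 2019 neutrophil-like cells were cut into 5 groups of equal size by the share of UMIs from its 7 genes, so each group is a range and not a cell type. Median depth rose from 2337.5 UMIs in the lowest group to 7754 in the highest. From the lowest to the highest group, Retnlg was at 6157, 10132, 12842, 17299 and 9749 CPM. Retnlg was thus highest in cells with some secondary-granule transcripts (a mean of 0.792% of UMIs) and lower in those with most (3.27%). The per-cell medians, at 7.90, 15.7, 51.1, 116 and 62.5 per 10000 UMIs, were also highest in group 4. By median, group 5 lay above groups 1 to 3, while by CPM it lay above group 1 only. By the chemokine list, whose genes mark activated neutrophils, groups 1 to 4 lay between 11600 and 13564 CPM and group 5 at 8301, while the per-cell medians were 75.9, 67.2, 60.7, 26.4 and 8.13, so the typical cell had less Retnlg in each next group.

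Retnlg did not show a settled direction between OVX and sham. Summed over all cells, Retnlg was at 9710 CPM in OVX (75727 UMIs) and 7603 CPM in sham (49134 UMIs), a ratio of 1.28 (exact interval 1.26 to 1.29). With each cell given equal weight, the means were 93.9 and 102 per 10000 UMIs, a ratio of 0.925, and the medians were 25.6 and 39.3. Within the neutrophil-like clusters alone the CPM ratio was 1.04. Over all clusters, weighted alike in both conditions, the log2 ratio was 0.08. The direction turned with the weighting.

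The clusters went different ways. In the P2rx7-Trpm2 cluster Retnlg was at 35846 CPM in 28 OVX cells and 23553 in 63 sham cells, a ratio of 1.52 (1.46 to 1.59). In the Ifitm1-Hacd4 cluster the levels were 21974 and 16052 CPM, a ratio of 1.37 over 144 and 176 cells. In the stefin cluster, which held 291 OVX and 28 sham cells, they were 14427 and 15039 CPM, a ratio of 0.959 (0.929 to 0.991). In summed UMIs, the secondary-granule, cell-cycle and Wfdc17-Oasl2 clusters had ratios of 1.27, 1.19 and 1.69. With equal weight per cell these ratios were 1.068, 1.202 and 1.091. The per-cell medians of these clusters were lower in OVX than in sham. Per 10000 UMIs they were 79.32 against 90.97, 12.39 against 14.01 and 4.52 against 8.92. In the cell-cycle cluster, 4 of 68 OVX cells held 52.2% of the OVX Retnlg UMIs. Per-cell medians in the Gm42418-Borcs6 cluster were 40.9 in OVX and 39.3 in sham per 10000 UMIs. Its levels were 7102 and 11747 CPM, a ratio of 0.605 (0.568 to 0.644). In the chemokine cluster, with 127 OVX and 332 sham cells, they were 3986 and 11562 CPM, a ratio of 0.345 (0.326 to 0.364), where 4.12% of the genes tested were at least 2-fold lower in OVX. The per-cell medians of that cluster were 5.90 and 14.8 per 10000 UMIs. At 1000 UMIs per cell, Retnlg was found in 52.6% of its OVX cells (exact interval 43.1% to 61.9%) and 66.9% of its sham cells (61.3% to 72.2%).

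The chemokine cluster's value depended on where the cluster was drawn. In 6 other clusterings the neutrophil-like cluster highest in the same chemokine list gave ratios between 0.318 and 2.84. Of these, 2 were above 1. The clusters did not hold the same cells. The 2 above 1 shared 65 and 226 of the 484 cells of the chemokine cluster, while the one at 0.318 shared 408. The one that shared 482, in a larger cluster of 381 OVX and 563 sham cells, gave 0.925. In the top group of cells by that list, Retnlg was at 8614 CPM in 227 OVX cells and 7908 in 160 sham cells, again the other direction. The list took 0.840% of UMIs in the chemokine cluster and 0.819% in the Wfdc17-Oasl2 cluster, so the name rests on a small margin. In the Wfdc17-Oasl2 cluster, of 178 OVX and 24 sham cells, the Retnlg ratio was 1.69, and 1.09 with equal weight per cell. The lower Retnlg in OVX cells of the chemokine cluster thus depended on which cells the cluster held.

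Ranked by secondary-granule transcripts, the conditions parted at the low end. In group 1, with the fewest, Retnlg was at 3939 CPM in 154 OVX cells and 7506 in 223 sham cells, and the per-cell medians were 5.41 and 10.2 per 10000 UMIs. In group 2 the levels were 8340 and 13352 CPM, and in group 3 they were 12119 and 14888. In groups 4 and 5 the order turned, with 17522 against 16587 and 10251 against 9008 CPM. The medians were 116 against 111 in group 4 and 54.0 against 65.7 in group 5, so in group 5 the typical OVX cell lay below the typical sham cell. The counting intervals of the CPM of OVX and sham did not overlap in any of the 5 groups. They leave out the spread between cells. The cells of 1 pool are not replicates of a condition, so whether the pools would differ again is unknown.

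**Figure D5:**
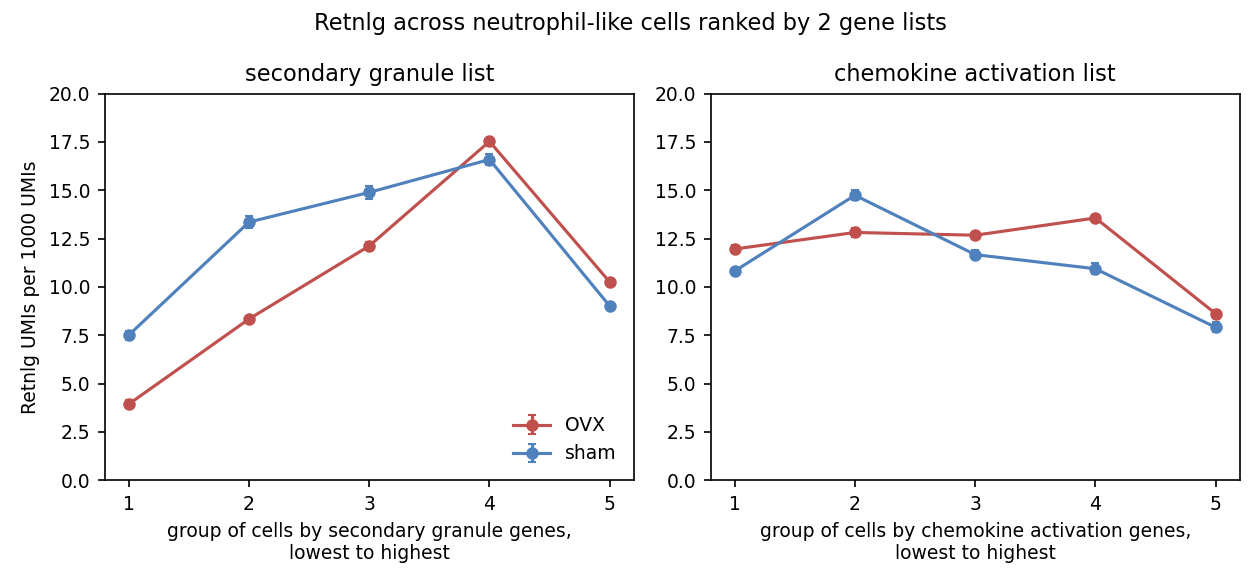
Retnlg UMIs per 1000 UMIs (y axis, from 0) in 5 equal groups of the 2019 neutrophil-like cells ranked by secondary-granule genes (left) and by chemokine genes (right), for OVX and sham cells, with exact Poisson intervals as bars. On the left, OVX lies below sham in groups 1 to 3 and above it in groups 4 and 5.

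Retnla was found in cells that also had Retnlg. Before thinning, all 19 cells with Retnla also had Retnlg, as did 86.3% of all cells. At 1000 UMIs per cell, 7 of 1883 neutrophil-like cells had both genes, 0 had Retnla alone, 1464 had Retnlg alone and 412 had neither, where independent genes would give 5.47 cells with both. The odds ratio, with 0.5 added to each cell of the table, was 4.22, and its exact conditional interval ran from 0.404 upward without a bound. At 2000 UMIs the counts were 5 and 1, and the odds ratio was 0.491. The 7 cells at 1000 UMIs include all 4 cells with most Retnla, and with so few cells these counts are a description. Within the 4 cells with most Retnla, the Retnlg level stood above 59.5%, 89.0%, 85.5% and 48.6% of the cells of the same cluster and condition.

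The genes most like Retnlg over 20 groups of cluster and condition, by Pearson's r of log2(CPM + 10), were Prr13 (r = 0.93), Mbd2 (0.93), Myh9 (0.92), Cnn2 (0.92) and Lyst (0.92), out of 1317 genes. These groups include cells that are not neutrophil-like, and over the 16 neutrophil-like groups the first was Mbd2 with r = 0.81. Those most like Retnla were Tspo (0.47), Stfa2 (0.47), Cstdc5 (0.46), Calm3 (0.44) and Hopx (0.39), and over the 16 neutrophil-like groups the first was Arg1 with r = 0.67, although Arg1 was at 0 UMIs in each of the 4 cells that hold most of the Retnla. Since most Retnla lay in 4 cells, its r values mostly reflect the groups that hold those cells. Stfa2 and Cstdc5 are leading genes of the stefin cluster, which holds 2 of the 4. The groups share a library, and the correlations are a description.

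The other resistin genes were near the limit of detection. Retnlb, the colonic member, had 24 UMIs in 24 cells (1.36 CPM, Poisson interval 0.87 to 2.02), with 16 in OVX and 7 in sham. Retn, which encodes resistin and is best known from fat tissue, had 37 UMIs in 34 cells (2.09 CPM). Of these UMIs, 26 were in OVX (3.33 CPM) and 8 in sham (1.24 CPM), a ratio of 2.69 (1.18 to 6.88). Within the neutrophil-like clusters the Retn ratio was 2.19 (0.964 to 5.61), an interval that spans 1. Both proposed receptors of resistin were present. In the neutrophil-like clusters, Cap1, an adenylyl cyclase-associated protein, was at 503 CPM in OVX and 611 in sham, and Tlr4, the lipopolysaccharide receptor, was at 183 and 185.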

How the data were processed

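One droplet library of OVX and sham cells was analysed. The counts deposited by the authors are raw UMIs per gene and barcode, from reads aligned to mm10 (GRCm38) with Cell Ranger, which also chose the barcodes. The release is 6.0.0 in the file header and 6.0.1 in the submitters' notes. Barcode calling and Cell Ranger's exclusion of reads that match several genes are thus part of the counts.

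A barcode's condition came from its hashtag UMIs, through HTODemux in Seurat 5.3.0 (run under R 4.3.3) with the positive quantile at 0.99. Cells were clustered with scanpy 1.11.5 and Louvain clustering (igraph 0.11.9) on 2000 variable genes without the resistin family, 30 components and 15 neighbors. The resolution was the lowest from 0.1 to 3 in steps of 0.05 at which 6 marker lists peaked in 6 different clusters of at least 10 cells, which gave 11 clusters. A cluster was called neutrophil-like at 100000 CPM or more of the neutrophil list, a limit set after seeing the data. Clusters without a name from a list carry their leading genes at 100 CPM or more. Scrublet marked 1 barcode as a doublet, and none was removed.

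Levels are summed UMIs per 1000000, with exact Poisson, Clopper-Pearson or conditional binomial intervals at 95%. Cells were thinned to 1000 UMIs with a fixed seed, which left out 171 of 2349 barcodes. The ratio intervals were tested on simulated Poisson counts, which lack the spread between cells seen here, so that test does not cover this spread. The thinning was checked on cells of the library itself. The members, the gene lists and the clustering rule were chosen with earlier results of these data known. Genes named are the resistin family, the lists of alternative activation and of proposed receptors, the 5 genes most like each member, cell type markers, and leading genes of clusters. Chil3, Car4, Tgm2 and the 4 cells with most Retnla were described after their values were seen. Alternatives were the other hashtag rule (80% of at least 10 hashtag UMIs), a barcode filter (at least 500 genes, at most 10% mitochondrial UMIs), doublet removal, equal weight per cell, other clusterings and other thinning depths. Transcripts and coordinates are from GENCODE M21 and promoters from RefSeq, aligned with Biopython 1.88.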

Additional observations from a re-analysis of the deposited data

Results flagged for a closer look

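In 3 clusters the log2 ratio of Retnlg in OVX to sham was flagged, and the 3 went opposite ways. It was -1.54 in the chemokine cluster, 0.61 in the P2rx7-Trpm2 cluster and 0.75 in the Wfdc17-Oasl2 cluster. In summed UMIs, clusters that were not flagged also departed, with -0.73 in Gm42418-Borcs6, 1.38 in Pf4-Ppbp and 1.14 in Gm10800-Gm10801. The Gm10800-Gm10801 value came from 28 OVX and 6 sham UMIs, and its ratio interval (0.893 to 6.49) spanned 1. In Pf4-Ppbp, 2 of 21 OVX cells held 65.2% of the OVX Retnlg UMIs. Per-cell medians in Gm42418-Borcs6 were 40.9 in OVX and 39.3 in sham per 10000 UMIs. The difference between these clusters was not tested, since each condition is 1 pool. The Wfdc17-Oasl2 value rests on 24 sham cells, and with each cell given equal weight its ratio was 1.09, while the per-cell median was lower in OVX (4.52 against 8.92 per 10000 UMIs).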

How the results depend on the processing

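The Retnlg ratios changed direction with the weighting and with the clustering. The log2 ratio over all cells, 0.35 as reported, was 0.58 under the hashtag share rule, 0.063 in neutrophil-like clusters only, -0.11 with equal weight per cell and 0.33 without the 5% of cells with the most Retnlg. With clusters weighted alike in both conditions, it was 0.08 as reported and 0.056 under the hashtag share rule. In other clusterings that value was -0.15 with 6 clusters, -0.037 with 8 and 0.18 with Leiden. With 1000 variable genes it was 0.11, with 30 neighbors 0.22 and with the family genes kept 0.27. In the cluster highest in the chemokine list, the Retnlg log2 ratio was 1.51 with Leiden, 0.12 with 1000 variable genes and -1.65 with 8 clusters. Those clusters shared 65, 226 and 408 of the 484 cells of the chemokine cluster.

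For Retnla, the log2 ratio over all cells was 3.63 under the hashtag share rule and 1.26 without the top cell. Without the 4 cells with 10 or more UMIs it was 0.051. With clusters weighted alike in both conditions it was 0.94 without the top cell. The stefin contrast was 3.28 with 6 clusters, 4.58 with equal weight per cell, 1.60 without the top cell and -2.53 without the 2 top cells. The co-detection odds ratio was 0.491 at 2000 UMIs, and the common odds ratio within clusters could not be computed at 1000 UMIs, since no cell had Retnla alone. Leaving cells out by their Retnla or Retnlg UMIs, and all alternatives for the chemokine cluster, were chosen after seeing the data. For the values other than that of the chemokine cluster, the other alternatives kept the direction and stayed within the counting interval. Where clusters were weighted alike in both conditions, an interval as wide as that over all cells was used. The number of Retnla cells limits every Retnla value. No paired analysis was possible because each condition is 1 pool.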
